A study of Homo sapiens with 24 samples.

Results

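The 82 probe sets described here had, by the mean over both sets of replicates, most of their fall between 48 and 72 h of culture in the human colorectal adenocarcinoma line HT29. In the first set of replicates alone most of it came earlier, with a median of 57.6% reached at 48 h. They are 0.166% of the 49293 probe sets measured that were not array controls. They were chosen by their measured values. The mean over the 8 arrays at 72 h had to lie at least 0.585 log2 units (1.5-fold) below the mean over the 8 arrays at 24 h. The same difference had to reach 0.3 in each set of replicates alone, and at most 35% of it could have been reached at 48 h. The conditions on the fall alone were met by 715 probe sets (1.45%), and 82 of these, 11.5%, also met the condition on 48 h. The levels by time, the falls and the 48 h shares of the members are therefore descriptions and carry no test.

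Cultures received VEGF or PDGF at 100 ng/ml, or the vehicle of the respective factor, for 24, 48 or 72 h, after seeding and 24 h of recovery. This gave 12 groups of 2 arrays, 24 arrays in all, with no untreated culture and no array before the additions among those analysed, so that time under treatment and time in culture cannot be told apart. All 12 arrays of replicate 1 were hybridised on one day and all 12 of replicate 2 on another, and these are called replicate set 1 and replicate set 2 below. A difference between the sets cannot be told apart from a difference between hybridisation days. The labels do not say that the replicates came from separate cultures, and HT29 is a single line.

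Markers of the labelled colorectal epithelium were mostly high. Mean log2 levels were 14.31 for KRT18, 13.57 for KRT8, 13.44 for KRT19, 13.26 for EPCAM and 12.43 for CDH1. VIL1 was lower at 10.04, and CDH17 (8.03) and CDX2 (7.39) were low. The best probe sets of 5 endothelial markers lay between 6.24 (EMCN) and 7.20 (VWF), and those of 6 fibroblast and pericyte markers between 6.29 (COL3A1) and 6.79 (COL1A1), near the median of 7.07 over all probe sets at 24 h. Of the 4 leukocyte markers measured, PTPRC was at 6.23, whereas LYZ, which some gut epithelial cells also make, was at 13.78. The medians of the 24 arrays lay between 7.05 and 7.13, and the median change of all probe sets from 24 to 72 h was 0.01. In RNA from whole cultures, fewer cells of a kind and less RNA per cell cannot be told apart.

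Dividing cells copy their DNA in S phase, which needs a supply of deoxynucleotides, and then separate the copies in mitosis, when kinetochores built on the centromeres attach to spindle microtubules and the spindle checkpoint holds division back until all are attached. RNAs of both phases are made periodically. E2F factors act at promoters of many S phase genes, and at many genes of G2 and mitosis the factor NF-Y binds CCAAT boxes while a repressive complex binds the cell cycle homology region. Cholesterol synthesis starts from acetyl-CoA and is controlled by sterol levels through SREBP factors.

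Exactly 1 gene symbol was paired with 75 of the 82 members, which gave 54 genes, 16 of them with more than 1 member probe set. Another 4 members are paired with several symbols and 3 with none, and these 7 are not given a gene name. By the manufacturer's suffixes, 39 members (47.6%) are of the kinds _x_at and _s_at, whose probes can match more than 1 transcript, against 29.2% of all probe sets. No member had the same values as another.

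Promoters of 4 member genes are shown as examples from the cell cycle and sterol groups, since the motifs below are known from such genes: TYMS for deoxynucleotide supply, SPC25 and MAD2L1 for the kinetochore and its checkpoint, and HMGCS1 for sterol synthesis. Each line is the 250 bases before the gene's start, in the direction of the gene, from RefSeq on GRCh38.p14. For HMGCS1, 2 promoters are listed, and a single window is shown. They lie at chr18:657403-657652 (plus strand, TYMS), chr2:168890431-168890680 (minus strand, SPC25), chr4:120066849-120067098 (minus strand, MAD2L1) and chr5:43313413-43313662 (minus strand, HMGCS1). Capitals mark matches, on either strand, to CCAAT, read as ATTGG on the opposite strand, to TTTGAA, read there as TTCAAA, the core of the cell cycle homology region, or to TTTNNCGC, read there as GCGNNAAA, a form of the E2F site. Upstream of TYMS the 1 match is to the E2F form, upstream of SPC25 there are 2 CCAAT and 1 TTTGAA, upstream of MAD2L1 1 CCAAT, and upstream of HMGCS1 2 CCAAT.
TYMS: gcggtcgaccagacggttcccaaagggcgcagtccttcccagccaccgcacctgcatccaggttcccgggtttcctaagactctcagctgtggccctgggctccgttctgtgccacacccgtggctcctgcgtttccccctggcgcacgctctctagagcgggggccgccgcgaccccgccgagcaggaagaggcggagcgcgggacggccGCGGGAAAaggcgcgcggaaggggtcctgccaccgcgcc
SPC25: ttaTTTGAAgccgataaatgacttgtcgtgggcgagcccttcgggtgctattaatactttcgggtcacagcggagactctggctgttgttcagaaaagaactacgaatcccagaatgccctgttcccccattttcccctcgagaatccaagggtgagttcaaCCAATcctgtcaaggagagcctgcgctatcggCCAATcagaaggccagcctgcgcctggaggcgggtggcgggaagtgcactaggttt
MAD2L1: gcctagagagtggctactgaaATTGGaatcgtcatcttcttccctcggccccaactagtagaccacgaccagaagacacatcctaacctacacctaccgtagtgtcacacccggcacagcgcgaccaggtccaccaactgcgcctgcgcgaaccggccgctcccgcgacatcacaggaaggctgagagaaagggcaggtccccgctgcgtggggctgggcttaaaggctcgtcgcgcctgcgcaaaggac
HMGCS1: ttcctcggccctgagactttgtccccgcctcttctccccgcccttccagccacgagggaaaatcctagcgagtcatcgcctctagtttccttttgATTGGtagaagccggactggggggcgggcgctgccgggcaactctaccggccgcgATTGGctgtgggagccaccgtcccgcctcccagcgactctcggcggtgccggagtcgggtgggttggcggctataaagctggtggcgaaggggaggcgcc

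Of the 54 member genes, 45 had a promoter in the table. CCAAT was found in 26 of these 45 windows (57.8%), against 33.0% of the windows of all 27305 genes and 41.0% of those of 295 genes that met the conditions on the fall but had no member probe set. TTTGAA was found in 6 windows (13.3%) against 13.6% of all and 11.5% of the other falling genes. The E2F form was found in 3 windows (6.67%), those of TYMS, CENPU and HNRNPC, against 5.93% of all and 14.6% of the other falling genes. A form of the sterol element, TCACNCCAC, was found in 0 of the 45 windows and in 0.875% of all. These are counts of letters in a fixed window, and no binding was measured.

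The members were mostly strongly detected RNAs. Their log2 levels at 24 h had a median of 10.74 and a range of 7.87 to 13.25, and the dimmest of them was brighter, on average over the arrays, than 61.2% of all probe sets. Their fall from 24 to 72 h had a median of -0.70 (1.62-fold) and ranged from -0.59 to -1.44, with 8 members falling more than 2-fold. The median change was -0.21 from 24 to 48 h and -0.50 from 48 to 72 h. At 48 h the members had reached a median of 32.1% of their fall, against 50.7% over all 715 falling probe sets.

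The limit on the 48 h share cut through a continuous distribution. Of the members, 54 lay between 0.30 and the limit of 0.35, and 61 falling probe sets lay between the limit and 0.40. Nearest inside the limit were SNRPF (35.0% of the fall reached at 48 h) and AKR1B10 (35.0%), and nearest outside were EHF (35.0%) and a second probe set of HAT1 (35.1%). At the limit on the fall, RRM1 (-0.591) and PRELID1 (-0.588) were the last inside, and a second probe set of HPGD (-0.585) and one of SNRNP70 (-0.584) the first outside. At the limit within each set, among the genes reported here, ANLN (-0.321) was inside and CCNA2 (-0.300) and PLK4 (-0.294) outside, all in set 1. Only this last limit was missed by 3 probe sets.

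**Figure D1:**
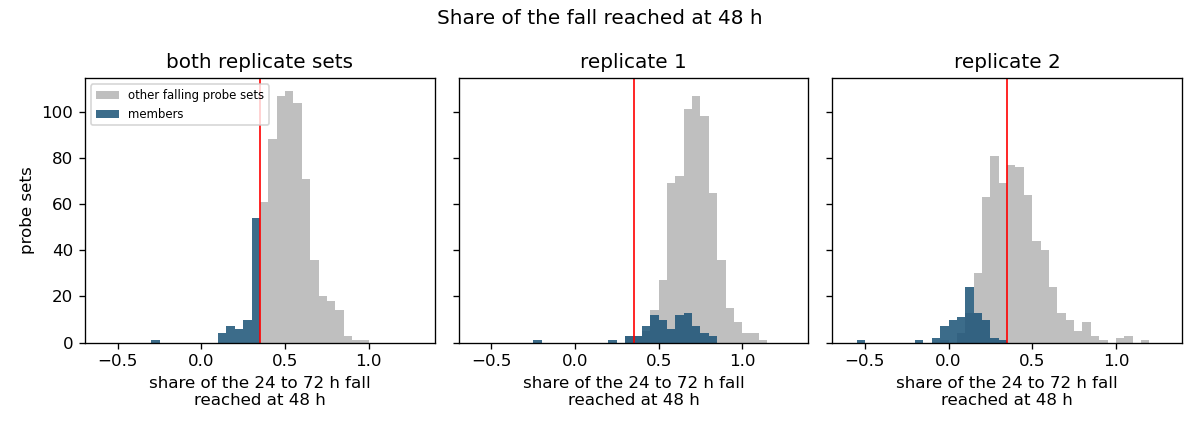
Share of the 24 to 72 h fall reached at 48 h (horizontal axis, no unit) for the 82 members (blue) and the 633 other falling probe sets (grey), with the number of probe sets on the vertical axis, for both replicate sets together and for each alone. The red line is the limit of 0.35; the members' median was 0.58 in replicate 1 and 0.11 in replicate 2.

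Among members with a single gene symbol, the largest falls were those of AKR1B10 and AKR1B15, near-identical aldo-keto reductases that reduce aldehydes and whose RNAs these probe sets may not separate. AKR1B10 had a log2 level of 12.64, 12.74, 12.61 and 12.63 in the 4 arrays of set 1 at 24 h (VEGF vehicle, PDGF vehicle, VEGF and PDGF, the order kept below) and 12.95, 12.86, 12.84 and 12.88 in set 2. At 48 h it was 11.96, 11.82, 11.69 and 11.72 in set 1 but 12.72, 12.82, 12.81 and 12.74 in set 2, where it stayed close to its 24 h level. At 72 h it was 10.90, 10.94, 10.75 and 10.90 in set 1 and 11.85, 11.92, 11.99 and 11.86 in set 2, so that the arrays of 72 h lay below those of 24 h in both sets. The mean fall was -1.38 (2.60-fold), and it was larger in set 1 (-1.78) than in set 2 (-0.98). AKR1B15 followed the same course with a mean fall of -1.35, from 10.81 to 9.45.

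Enzymes of nucleotide synthesis were represented by 7 genes and 10 probe sets, with falls from -0.59 to -1.19. TYMS, thymidylate synthase, was at 10.94, 10.95, 11.05 and 10.82 in set 1 and 10.90, 10.74, 10.75 and 10.88 in set 2 at 24 h. At 48 h it was 10.48, 10.39, 10.20 and 10.17 in set 1 and 10.69, 10.73, 10.69 and 10.58 in set 2. At 72 h it was 10.13, 9.86, 9.98 and 9.97 in set 1 and 9.22, 9.48, 9.43 and 9.44 in set 2. Set 1 thus stood lower at 48 h and set 2 lower at 72 h, with no overlap between the sets at either time, and the second TYMS probe set was also a member. TK1, the thymidine kinase of S phase, was 11.78 on average at 24 h, 11.62 at 48 h and 11.11 at 72 h, and both of its probe sets were members. RRM1, the large subunit of ribonucleotide reductase, was 10.97, 10.87 and 10.38. PAICS, an enzyme of purine synthesis, was 11.74, 11.44 and 10.82. DTYMK (thymidylate kinase), GART (purine synthesis) and PRPS1 (which makes the ribose phosphate precursor of nucleotides) made up the rest of the group, with falls of -0.73, -0.71 and up to -0.77.

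Kinetochore and checkpoint genes numbered 9, with 11 probe sets and falls from -0.63 to -0.92. SPC25, a subunit of the NDC80 complex that holds microtubules, was at 9.45, 9.53, 9.64 and 9.43 in set 1 and between 9.94 and 10.09 in set 2 at 24 h. At 48 h it was 9.30, 9.12, 8.87 and 9.05 in set 1 and 9.80, 9.99, 9.81 and 9.74 in set 2, and at 72 h 9.14, 8.86, 9.00 and 8.93 in set 1 and 8.72, 8.73, 8.71 and 8.64 in set 2. In set 1 the 48 and 72 h arrays therefore overlapped, whereas in set 2 they did not. MAD2L1, the checkpoint protein that inhibits the start of anaphase, had mean levels of 11.22, 10.96 and 10.41, and TRIP13, the ATPase that remodels it, 10.21, 9.94 and 9.38. CENPH, CENPK, CENPM, CENPU and CENPW, inner kinetochore proteins, had falls between -0.63 and -0.72, and ZWINT, which joins the outer kinetochore, -0.76.

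**Figure D2:**
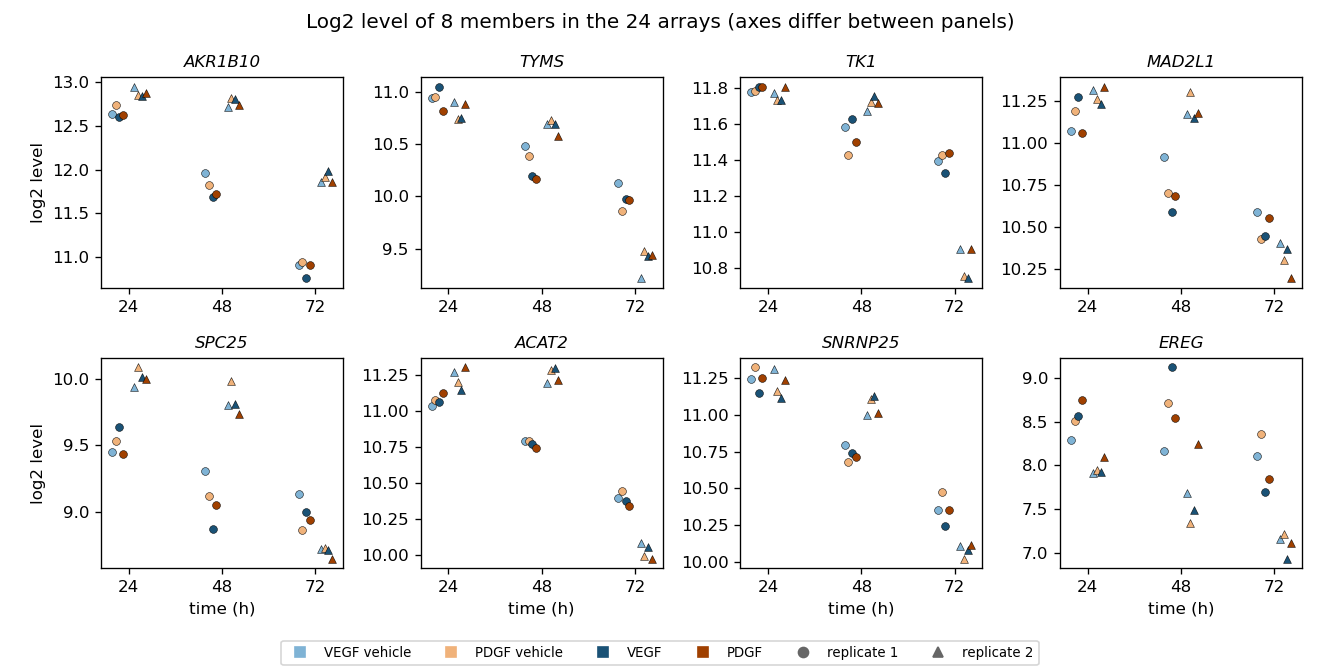
Log2 level (vertical axis, a separate scale in each panel) of 8 members at 24, 48 and 72 h (horizontal axis), 1 point per array, with colour for the treatment and circles and triangles for replicate sets 1 and 2. At 48 h the circles lie below the triangles in all panels but EREG, where the circles reach from 8.17 to 9.13 and the triangles from 7.34 to 8.25; AKR1B10 ends at 10.75 to 10.94 in set 1 and 11.85 to 11.99 in set 2.

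Chromosome condensation, cytokinesis and tubulin were represented by 6 genes and 11 probe sets, with falls from -0.59 to -0.86. NCAPG2, a condensin II subunit, had mean levels of 10.32, 10.06 and 9.47, and SMC2, a core subunit of condensin, a fall of up to -0.74. ANLN, which organises the cleavage furrow, had a fall of -0.71, VRK1, a nuclear kinase, -0.77, and TUBB, a beta-tubulin with 4 member probe sets, -0.59 to -0.65. The other 2 of the 6 TUBB probe sets also passed the fall limit, but with 48 h shares from 0.600 upwards, so its probe sets disagreed on the timing. ARHGAP11A was 8.65, 8.55 and 8.03, and so had one of the lowest 48 h shares (16.7%). CHEK1, the checkpoint kinase of replication stress, had 3 member probe sets with falls from -0.62 to -0.70. Of chromatin genes, H2AC20, a histone H2A gene, had a fall of -0.73, HAT1, a histone acetyltransferase, -0.78, and ASXL1, a Polycomb-associated protein, -0.60 with 16.8% reached at 48 h. The fall of H2AC20 leaned on the VEGF vehicle array of set 2 at 24 h, at 9.76. The remaining arrays of that set and time lay between 8.64 and 8.87. Over both sets its arrays of 24 and 72 h overlapped, and its other probe set had a fall of -0.12.

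RNA binding, splicing and transcription held 6 genes and 9 probe sets, with falls from -0.60 to -1.003. SNRNP25, a protein of the minor spliceosome, was 11.22, 10.90 and 10.22, and ALYREF, an mRNA export adaptor, 12.12, 11.83 and 11.23. SNRPF, a core snRNP protein, had 3 member probe sets with falls of -0.60 to -0.76, and HNRNPC, HNRNPR and the RNA polymerase subunit gene POLR2L had falls between -0.60 and -0.65. CSE1L and RANBP1, which act in nuclear transport, had falls of -0.59 to -0.70, and PSMD2 and UCHL5, both of the proteasome's regulatory particle, -0.60 and -0.71.

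Sterol synthesis was represented by ACAT2 and HMGCS1, whose enzymes make acetoacetyl-CoA and HMG-CoA. All 3 probe sets of ACAT2 were members, with falls of -0.79 to -0.94 and 48 h shares of 0.144 to 0.178. The one with the largest fall was at 11.03, 11.08, 11.06 and 11.12 in set 1 and 11.27, 11.20, 11.15 and 11.30 in set 2 at 24 h. At 48 h it was 10.79, 10.79, 10.77 and 10.75 in set 1 and 11.19, 11.29, 11.30 and 11.22 in set 2, and at 72 h 10.40, 10.45, 10.38 and 10.34 in set 1 and between 9.98 and 10.09 in set 2. The arrays of 24 and 48 h thus overlapped in set 2 and not in set 1. HMGCS1 was 10.30, 10.01 and 9.45 on average, and a second probe set of it fell past the limit with 50.2% reached at 48 h.

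Mitochondrial and peroxisomal roles, taken loosely, covered 7 genes and 8 probe sets, with falls from -0.59 to -0.75. COQ3, a methyltransferase of coenzyme Q synthesis, was 10.32, 10.24 and 9.71, with 13.6% of its fall at 48 h. ABCD3, a peroxisomal fatty acid transporter, was 8.93, 8.73 and 8.25, and PHB1 (prohibitin), PRELID1 (phospholipid transfer), MTCH2 (an outer membrane insertase), MTFR2 (mitochondrial fission) and AIFM2 (a coenzyme Q reductase) had falls from -0.59 to -0.75.

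Other members were DST, EREG, DEF8, HPGD, LRRFIP1 and MTMR2. DST, a cytoskeletal linker, was 8.83, 8.51 and 7.74. HPGD, which degrades prostaglandins, had a fall of -0.65, LRRFIP1 one of -0.64 and the phosphoinositide phosphatase MTMR2 one of -0.61. DEF8 was 10.81, 10.68 and 10.004 by its member with the larger fall, whereas its 2 probe sets outside the members were higher at 72 h by 0.03 and 0.60, so that its probe sets disagreed. EREG, the EGF receptor ligand epiregulin, had the lowest 48 h share of the named members (12.6%) and the widest scatter. It was at 8.29, 8.51, 8.57 and 8.75 in set 1 and 7.92, 7.95, 7.93 and 8.10 in set 2 at 24 h, and at 8.17, 8.72, 9.13 and 8.54 in set 1 and 7.68, 7.34, 7.49 and 8.25 in set 2 at 48 h. At 72 h it was 8.11, 8.37, 7.69 and 7.84 in set 1 and 7.15, 7.21, 6.93 and 7.11 in set 2. At 48 h it was therefore higher than at 24 h in some arrays of set 1 and lower in most of set 2, with -20.5% of the fall reached at 48 h in set 1 and 32.5% in set 2. These roles were assigned from textbook knowledge with the members already known.

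The largest fall of all, -1.44, was that of a member paired with several symbols. One member with no gene name was the only one whose mean was higher at 48 h than at 24 h, with mean levels moving by 0.20 up to 48 h and by -0.91 from there to 72 h. In set 2 it was 9.53, 9.38, 9.21 and 9.40 at 24 h, 9.82, 9.93, 9.95 and 9.88 at 48 h and 8.20, 8.54, 8.41 and 8.46 at 72 h, without overlap between times.

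Among the 104 other probe sets of the member genes, 94 were lower at 72 h than at 24 h, against 45.1% of all probe sets. Their median fall was -0.44, and 25 passed the fall limit with 48 h shares from 0.351 upwards. Those higher at 72 h belonged to DEF8, DST, ASXL1, GART, MAD2L1, MTCH2 and UCHL5. Outside DEF8 the largest rise was 0.15, in GART. All probe sets were members for 18 of the 54 genes, and 13 of those have a single probe set.

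The course of the members depended on the replicate set. In set 1 the median change of the members was -0.32 from 24 to 48 h and -0.56 from 24 to 72 h. In set 2 it was -0.11 and -0.87. The median over the members, taken relative to each member's 24 h mean, lay between -0.39 and -0.30 in the 4 arrays of set 1 at 48 h and between -0.08 and -0.01 in those of set 2. At 72 h it lay between -0.65 and -0.56 in set 1 and between -0.91 and -0.79 in set 2, so the sets did not overlap at either time, in opposite order.

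**Figure D3:**
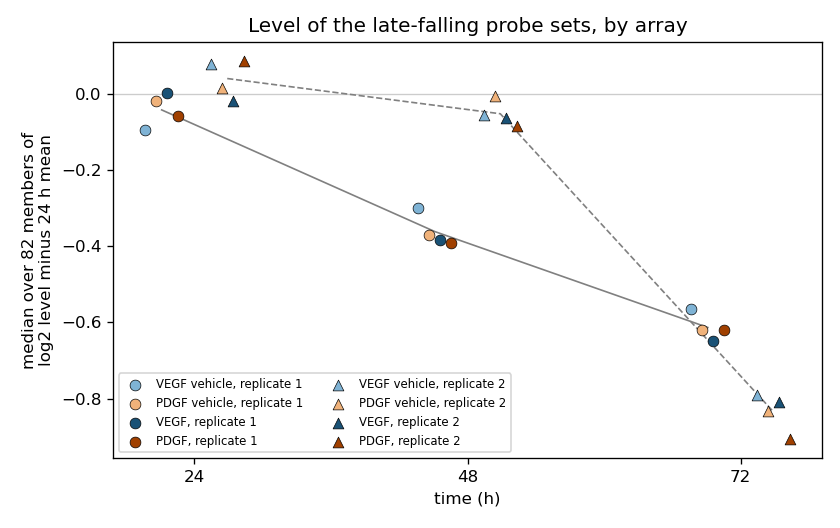
Median over the 82 members of the log2 level minus each member's 24 h mean (vertical axis) in the 24 arrays by time (horizontal axis), with colour for the treatment, circles and a solid line through the means for replicate set 1, and triangles and a dashed line for replicate set 2. At 48 h set 1 lies between -0.39 and -0.30 and set 2 between -0.08 and -0.01.

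Taken alone, set 1 put 5 of the 82 members at or under the 48 h limit and set 2 all 82, and of the 715 falling probe sets 8 and 343. The median share reached at 48 h was 57.6% in set 1 and 11.4% in set 2. The share was higher in set 1 for 81 of 82 members and for 596 of the 633 other falling probe sets. In set 2 the 4 arrays of 72 h lay below the 4 of 48 h in 82 of 82 members, and in set 1 in 54. In set 1 the 4 arrays of 48 h lay below the 4 of 24 h in 68 members, and in set 2 in 23. The rule itself asks for a late fall, which favours such patterns, and these counts of arrays without overlap were made for the members only. No share over other probe sets stands beside them, so they mark no trait particular to the members. The membership moved with single arrays: leaving out any 1 array of set 2 at 48 h left 38 (PDGF vehicle), 46 (VEGF), 47 (VEGF vehicle) or 51 (PDGF) members, and leaving out the VEGF array of set 1 at 48 h gave 130.

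The rule chose the members on the means of these same arrays, and all 82 met its 48 h limit in set 2 alone, so the difference between the sets in the change from 24 to 48 h is a description of the members and supports nothing further. In a limma fit with a mean for each group, the replicate set and the set by time, this difference had an adjusted p under 0.05 in 35 of 82 members, where the share was 4.87% over the whole array and 25.6% over the 633 others that met the fall conditions. In all 35 the change was less negative, or positive, in set 2, a direction called in 1.49% of all probe sets. The median difference over the members was 0.25 log2 units. The arrays of a set and time differ in treatment, so the fit measures the spread between treatments within a set and not the spread between further replicates.

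By the size of that difference among the called members, AKR1B10 came first of the named genes, with 0.74 ± 0.08 (SE of the limma fit). AKR1B15 followed with 0.62 ± 0.08 and ABCD3 with 0.61 ± 0.07. The ABCD3 probe set was at 8.16, 8.18, 8.29 and 8.15 in set 1 and 9.26, 9.37, 9.24 and 9.23 in set 2 at 48 h, without overlap. Set 2 was already higher at 24 h, at 9.07 to 9.20 against 8.58 to 8.82. TYMS had 0.48 ± 0.10, MAD2L1 0.34 ± 0.09 and ACAT2 0.32 ± 0.06. SPC25, at 0.25 ± 0.09, and the TK1 probe set with the larger fall, at 0.22 ± 0.06, were not among the 35. The second TK1 probe set changed from 24 to 48 h by -0.30 in set 1 and -0.01 in set 2. EREG was not among the 35 either, and its difference had the opposite sign (-0.39 ± 0.20).

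**Figure D4:**
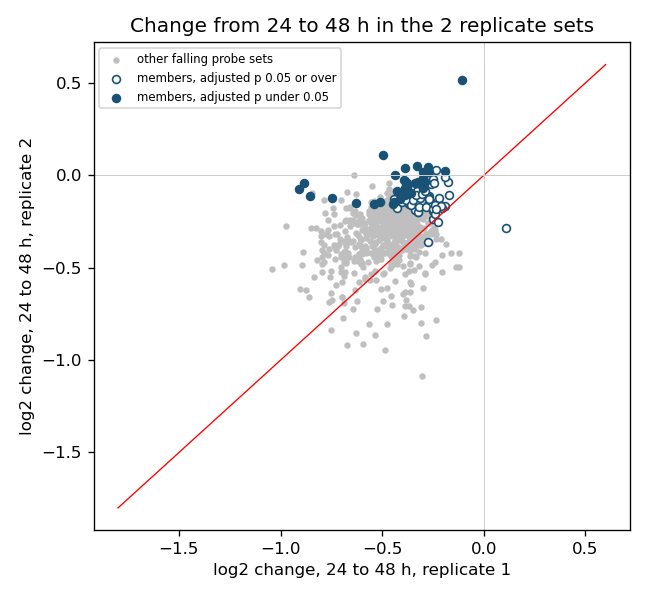
Log2 change from 24 to 48 h in replicate 1 (horizontal axis) and replicate 2 (vertical axis) for the 82 members, filled where the difference between the sets passed an adjusted p of 0.05 (35) and open where it did not, and for the 633 other falling probe sets (grey). The red line marks equal changes, and 79 of the 82 members lie above it.

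The rule filtered on the change from 24 to 72 h in each set, so the difference between the sets in that change is also a description only. In the same fit 49 of 82 members had an adjusted p under 0.05 for it, where the share was 8.72% over the whole array and 30.2% over those 633. The fall was larger in set 2 in 44 of the 49, a direction called in 5.33% of all, and smaller in 5. Over all members, called or not, the fall was larger in set 2 in 73 of 82, and so it was in 436 of the 633. For SPC25 the difference was -0.78 ± 0.09 and for NCAPG2 -0.71 ± 0.07. AKR1B10 went the other way, with 0.80 ± 0.08, as did AKR1B15 with 0.81 ± 0.08 and ABCD3 with 0.24 ± 0.07.

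Averaged over the 3 times, set 2 differed from set 1 in 58 of 82 members, compared with 33.2% of the whole array and 67.1% of those 633. It was higher in 41, a direction called in 17.4% of all, and lower in 17. The median was 0.08. The means of the RNA integrity numbers were 9.25 and 9.28 at 24 h, 9.70 and 9.58 at 48 h and 9.70 and 9.45 at 72 h, for sets 1 and 2. With the integrity number as a covariate, the 48 h difference was called in 31 members.

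Neither factor moved the members past the threshold. In the 12 comparisons of treatments, 0 of 82 members had an adjusted p under 0.05 (limma, a mean for each group), and the same held for 0% of all probe sets in each. With an unadjusted p under 0.05 there were also 0 members in each of the 12. The shares of all probe sets under that unadjusted level were 1.53% for VEGF against its vehicle at 24 h, 1.65% at 48 h, 3.05% at 72 h and 1.92% over the mean of times. For PDGF they were 1.05%, 1.1%, 4.01% and 1.36%. They were 1.17% for the VEGF response compared with the PDGF response, 1.08% for the vehicles against each other, and 2.02% and 2.97% for the change of the VEGF and the PDGF response from 24 to 72 h.

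At a single time the 95% interval of a member's difference reached a median of 0.45 log2 units to either side, and over the mean of times 0.26. This spread includes the difference between the replicate sets. With the set and the set by time in the model, a choice made after the data were seen, the median reach was 0.16 and 0.09. Then 0 members were called again, with a lowest adjusted p of 0.244 (limma), for PDGF at 72 h, where 4 of all probe sets (0.00811%) were called. Members with an unadjusted p under 0.05 then numbered 0 to 10 over the 12 comparisons, the 10 (12.2%) for VEGF at 24 h, against 3.82% of all probe sets.

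The median difference over the members was 0.00 for VEGF at 24 h, -0.04 at 48 h and -0.06 at 72 h, and 0.01, -0.04 and -0.05 for PDGF. At 72 h, 15 of 82 members were higher with VEGF than with its vehicle and 24 with PDGF, against 48.5% and 50.9% of all probe sets. The members share their arrays, so a shift of 1 array moves many of them together. Within sets the medians changed sign for VEGF at 24 h (0.08 in set 1 and -0.09 in set 2), for VEGF at 48 h (-0.11 and 0.02) and for PDGF at 24 h (-0.04 and 0.07). At 72 h they were -0.09 and -0.04 for VEGF and -0.01 and -0.08 for PDGF. At that time 46 members kept the same sign in both sets with VEGF and 40 with PDGF.

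**Figure D5:**
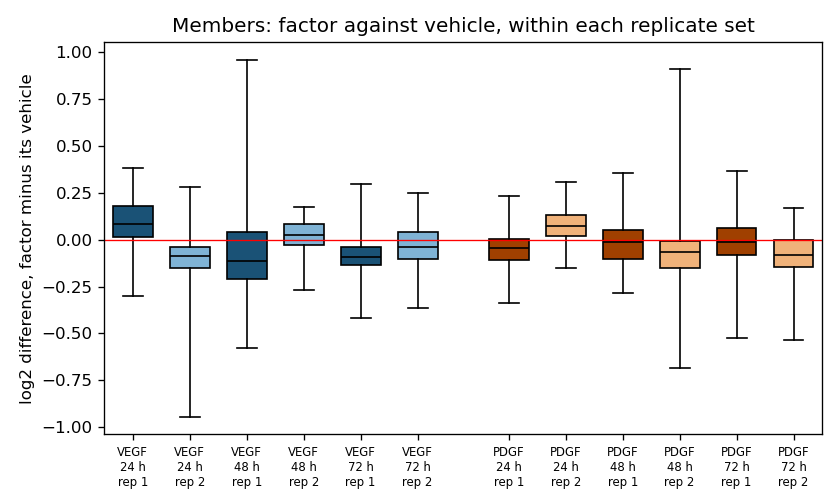
Log2 difference between a factor and its vehicle (vertical axis) over the 82 members, by factor, time and replicate (rep; horizontal axis), with boxes for the quartiles, a line for the median and whiskers to the lowest and highest member. Each box compares 1 array with 1 array, the medians lie between -0.11 and 0.08, and for VEGF at 24 and 48 h and PDGF at 24 h they have opposite signs in the 2 replicates.

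The widest differences were those of H2AC20 and EREG, which were singled out after their values were seen. H2AC20 was lower with VEGF at 24 h by a difference of -0.62 (95% interval reaching 1.06 to either side, limma adjusted p = 1.00). VEGF was at 8.23 against 8.54 for its vehicle in set 1 and at 8.82 against 9.76 in set 2, where that vehicle array stood apart. For EREG at 48 h the difference was 0.38 with VEGF and 0.37 with PDGF, each with a reach of 1.20 (limma adjusted p = 1.00 for both): VEGF was higher than its vehicle in set 1 (9.13 against 8.17) and lower in set 2 (7.49 against 7.68), and PDGF lower in set 1 (8.54 against 8.72) and higher in set 2 (8.25 against 7.34).

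Each treatment on its own showed the fall. All 82 members were lower at 72 h than at 24 h in each of the 4 treatments, with medians of -0.65 and -0.70 for the VEGF and PDGF vehicles, -0.73 for VEGF and -0.73 for PDGF. The fall limit was passed by 59, 62, 75 and 82 members, respectively. The rule used the mean over these treatments, so these counts are descriptions.

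Within wider gene lists the members were a small part. Of 100 probe sets of DNA replication and S phase, 63 met the conditions on the fall and 5 were members (TYMS, TK1 and RRM1), and the falling ones had reached a median of 49.3% at 48 h. By limma over all treatments 89 of the 100 fell from 24 to 72 h and 0 rose, against 12.5% of all probe sets called lower. From 24 to 48 h 55 fell, against 4.64% of all, and from 48 to 72 h 62, against 4.35%. Of 82 probe sets of mitosis, 7 met the fall conditions, 2 of them members (both MAD2L1). From 24 to 72 h 35 (42.7%) fell, and from 48 to 72 h 10 (12.2%). From 24 to 48 h 4 (4.88%) fell, which is near the share of all probe sets. Of 39 probe sets of sterol synthesis and uptake, 12 met the fall conditions and 4 were members (ACAT2 and HMGCS1). In that list 24 (61.5%) fell from 24 to 72 h, 5 (12.8%) from 24 to 48 h and 17 (43.6%) from 48 to 72 h. The limma counts in these lists compare the same means by time that the rule used. Each of these lists holds members, and the lists were chosen with earlier results of these data known. The counts are therefore descriptions and not independent support.

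The remaining lists held no member. Of 67 probe sets of ribosome biogenesis, 15 met the fall conditions, with a median of 59.6% reached at 48 h, and of 39 of heat shock proteins 11, with 78.6%. The other 15 lists, among them cytosolic ribosomal proteins, glycolysis, the respiratory chain and the ligands and receptors of VEGF and PDGF, held at most 2 falling probe sets each. No marker of any of the 4 cell type lists met the fall conditions. Of the 24 probe sets of epithelial markers, 20 were lower at 72 h than at 24 h, with a median of -0.16, and by limma 7 fell and 2 rose. By the same test 0 of 14 probe sets of endothelial markers, 1 of 25 of fibroblast and pericyte markers and 0 of 12 of leukocyte markers fell. The limma calls between times, for the gene lists and the markers, came from a fit without a term for the replicate set. It treats the arrays of a time as independent, although samples of the same replicate set deviated together. These calls therefore do not measure the spread between further replicates.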

How the data were processed

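RNA of 24 HT29 samples was amplified, labelled with biotin and hybridised to Affymetrix arrays, 1 per sample. Per the submitters' processing notes, the authors used RMA under R 3.0.1, and the values they deposited are log2 levels per probe set. RMA equalises the distributions of the arrays, so a shift shared by most RNAs cannot be seen. The number of arrays limits the precision. The 102 manufacturer and 100 ERCC controls were set aside, which left 49293 probe sets, tested without a filter. Gene symbols came from the platform annotation and promoters from RefSeq.

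Treatments were compared with limma 3.58.1 in R 4.3.3, with a mean for each of the 12 groups, eBayes, 2-sided tests and Benjamini-Hochberg adjustment over all probe sets (threshold 0.05). Replicate sets were compared with the set and the set by time added to these means. Samples with the same replicate number, which share a hybridisation day, deviated together in all 66 pairs of groups (r from 0.257 to 0.800), so the replicate block is given as an alternative.

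The members and gene lists were chosen with earlier results of these data known. Genes were named by these rules: the 12 largest falls, the 6 lowest 48 h shares, the 4 largest set differences at 48 h, up to 4 members of each list and those nearest each limit; other member genes are given as the list of members, of which 1 gene is not reported here. Alternatives were other normalisations, the second deposited table, other limits, vehicle or treated arrays alone, a filter on dim signals, the integrity number and each array left out. The fits were tested on simulated data.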

Additional observations from a re-analysis of the deposited data

Results flagged for a closer look

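The change from 24 to 48 h differed between the replicate sets in 35 members and the change from 24 to 72 h in 49, at an adjusted p under 0.05 in limma's test of the difference itself. The rule chose the members on these same arrays, and all 82 met its 48 h limit in set 2 alone against 5 in set 1 alone, so both counts are descriptions and not independent results. The sets are also the hybridisation days, so set and day cannot be told apart.

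A lone array was looked for in 75 groups of values, those of the members' array medians and of the named members at each time, and chance alone marks about 1 in 20 groups. It was found in 2. HMGCS1 at 48 h was at 9.38 in the VEGF array of replicate 1, apart from the next lowest of the 8 arrays at 9.89. COQ3 at 72 h was at 9.61 in the PDGF array of replicate 2, apart from the next lowest at 9.70.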

How the results depend on the processing

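The number of members depended most on the limits. It was 132 with a fall limit of 0.5 and 41 with 0.7, and 18 with a limit on the 48 h share of 0.25 and 231 with 0.45. Leaving out each array in turn gave 38 to 130 members: 38 to 51 without an array of replicate 2 at 48 h, 103 to 130 without one of replicate 1 at 48 h, and 59 to 96 without one of 24 or 72 h. Other normalisations gave 96 members (70 of the 82 among them, arrays centred on their median) and 71 (55, quantile normalisation). The vehicle arrays alone gave 120 (52 shared) and the treated arrays alone 117 (51).

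No member was called in any of the 12 treatment comparisons under any of their 407 alternative fits, the replicate block among them, with which 0 members were called and up to 3 had an unadjusted p under 0.05. The lowest adjusted p in these fits was 0.244. The members called between the replicate sets numbered 24 to 41 for the change to 48 h, 40 to 54 for the change to 72 h and 53 to 59 for the mean of times over 31 alternatives each. Leaving out either array of a group gives the same set comparison, since the array that remains is fitted by its own mean. The set differences at 48 h of AKR1B10, AKR1B15, ABCD3 and TYMS passed in all of their 124 alternative fits. These genes were picked for the largest such differences among the called members. The fits reuse the same arrays, so their passing is not independent support. Of 609 recomputed falls of named members, 14 moved by more than the spread of the 24 h arrays, and 0 changed sign. With 2 arrays in each group on 2 days, the spread between cultures was not measured.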
